A study of Homo sapiens with 2 samples.

Results

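The genes described here encode the protein core of the human splicing machinery and the 2 large protein families that steer it, the SR and hnRNP proteins. Members were chosen by symbol: a gene entered when its approved name began with SNRP, LSM, SF3A, SF3B, SRSF, PRPF, U2AF or HNRNP, when the array annotation gave it at least 1 probe set of its own, and when it was neither a pseudogene nor an antisense gene. This rule used no expression value. It gave 79 genes of the 19775 that had a probe set of their own, read by 218 probe sets. By the first letters of their symbols they fell into 45 genes called snRNP here (12 SNRP, 13 LSM, 9 SF3 and 11 PRPF), 3 U2AF genes, 10 SR genes and 19 hnRNP genes. The other 2, LSMEM1 and LSMEM2, encode membrane proteins that share only the letters of their names with the LSm family. They are counted because the rule takes them, and are kept apart from the splicing groups. The snRNP label is broad, since it also takes in LSM1, LSM10, LSM11, LSM12, LSM14A, LSM14B and PRPF19. Apart from LSM12, which is placed in no snRNP below, these are described with mRNA decay, histone mRNA processing, mRNP granules and the Prp19 complex.

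The cells were of the line SU-DHL-1, which was derived from an anaplastic large cell lymphoma (ALCL) and makes the fusion kinase NPM1-ALK. They were electroporated with a commercial non-targeting siRNA (siCTR) or with siRNA directed against the NKL homeobox gene HLX (siHLX), and were harvested within a day. Each treatment was read by 1 Affymetrix HG-U133 Plus 2.0 array, so there was no replicate error, no test between the treatments was run, and the differences describe this pair of arrays from a single cell line. In bulk RNA of this kind, fewer cells of a type and less RNA per cell cannot be told apart.

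Introns are removed from pre-mRNA by the spliceosome, which assembles on each intron from small nuclear ribonucleoproteins (snRNPs). Each snRNP holds a short RNA inside a ring of Sm or LSm proteins together with proteins of its own. The U1 snRNP recognises the 5′ splice site, U2AF and the SF3A and SF3B parts of the U2 snRNP define the branch site and the 3′ splice site, and the U4/U6.U5 tri-snRNP, with its PRPF proteins, brings the catalytic RNA. SR proteins bind exonic enhancers and mostly favour the use of nearby sites, whereas hnRNP proteins coat the nascent transcript and often repress them. In lymphocytes the balance of both families shapes, among others, the isoforms of the surface phosphatase CD45.

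The values were log2 intensities after robust multi-array averaging (RMA), and a difference is always the siHLX value minus the siCTR value on that scale. The siRNA target HLX was at 8.15 with siCTR and at 7.70 with siHLX, which is -0.45 or 0.732 times the control. HLX was read by 1 probe set, stayed short of the 1.5-fold limit used below, and was at -0.16 under the poly-A scaling described below. Both arrays had a median of 4.87 over 54613 probe sets, and they correlated across probe sets with r = 0.989. All 8 ALCL markers examined were above the level threshold given below (5.80 for CD4 to 13.40 for GZMB). Of the markers for other cells that had their own probe set, 2 of 4 for B cells, 1 of 4 for myeloid cells, 2 of 3 chains of the T-cell receptor complex and 1 of 2 for stroma were above it. These were CD79A (6.69), PAX5 (5.205), CSF1R (6.01), CD3D (10.855), CD3E (5.775) and COL1A1 (7.525). Below it were MS4A1, CD79B, CD14, LYZ, MPO, CD3G and COL1A2. The 24 probe sets for poly-A control transcripts, which are added to the RNA before labelling, were on average lower with siHLX (-0.29 ± 0.18, SD over probe sets), while those added at hybridisation differed by -0.03 ± 0.08 (18 probe sets). Scaling both arrays to the poly-A controls moved the median difference of all genes from -0.01 to 0.28. It placed 77 of 77 members above the level threshold higher with siHLX, and only 11.2% of all genes lower. The directions below therefore hold on the deposited scale. They are set against the median of all genes, a comparison that such a scaling leaves as it is.

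The starts of 4 member genes are shown, chosen by the readings given below, and no link between a start and a reading was tested. SNRPB2 and HNRNPC had the most negative differences of the SNRP and the hnRNP genes. SRSF1 was the brightest SR gene, and HNRNPLL the hnRNP gene with at least 3 probe sets that were all higher with siHLX. Each start is printed 5′ to 3′ on the strand of the gene, from 250 bases before to 50 bases after the annotated start. All were taken from RefSeq on build GRCh38.p14. The windows lie at chr20:16729776-16730075 on the + strand for SNRPB2, chr17:58007197-58007496 on the - strand for SRSF1, chr14:21269393-21269692 on the - strand for HNRNPC and chr2:38602879-38603178 on the - strand for HNRNPLL. Capitals mark the ETS core CCGGAAG in SNRPB2 and HNRNPLL, and the homeodomain cores TAATTA and CAATTA in HNRNPC, in either orientation.
SNRPB2: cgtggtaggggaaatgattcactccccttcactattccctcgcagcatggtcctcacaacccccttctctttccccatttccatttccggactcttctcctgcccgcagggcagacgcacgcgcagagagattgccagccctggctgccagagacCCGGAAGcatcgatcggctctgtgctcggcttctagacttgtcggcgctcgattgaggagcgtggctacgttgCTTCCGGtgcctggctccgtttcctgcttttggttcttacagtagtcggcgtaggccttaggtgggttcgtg
SRSF1: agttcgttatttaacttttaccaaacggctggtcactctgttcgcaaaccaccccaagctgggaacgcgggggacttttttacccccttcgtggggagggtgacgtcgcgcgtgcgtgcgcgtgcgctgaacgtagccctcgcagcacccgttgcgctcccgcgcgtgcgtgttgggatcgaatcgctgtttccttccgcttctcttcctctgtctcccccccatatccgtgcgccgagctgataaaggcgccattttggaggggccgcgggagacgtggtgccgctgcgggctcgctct
HNRNPC: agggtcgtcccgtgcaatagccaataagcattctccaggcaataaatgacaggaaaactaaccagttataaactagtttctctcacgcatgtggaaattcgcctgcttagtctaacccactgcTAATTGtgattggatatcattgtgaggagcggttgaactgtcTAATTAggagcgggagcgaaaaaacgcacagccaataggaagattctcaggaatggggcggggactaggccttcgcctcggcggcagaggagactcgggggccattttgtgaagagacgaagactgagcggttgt
HNRNPLL: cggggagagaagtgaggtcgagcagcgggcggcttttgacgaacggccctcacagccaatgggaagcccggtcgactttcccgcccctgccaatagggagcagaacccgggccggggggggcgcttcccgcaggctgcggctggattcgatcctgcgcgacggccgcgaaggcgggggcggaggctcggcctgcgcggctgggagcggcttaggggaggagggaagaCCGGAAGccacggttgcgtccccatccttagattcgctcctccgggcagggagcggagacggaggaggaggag
The SNRPB2 window had 58.7% G and C and held the ETS core at -95 from the start and, in reverse orientation, at -22. The SRSF1 window, with 62.0% G and C, held none of these 3 motifs. The HNRNPC window was the poorest of the 4 in G and C (49.3%), with TAATTA at -85 and CAATTA, reversed, at -127. The HNRNPLL window was the richest (70.3%) and held the ETS core at -23.

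Homeodomain proteins, the class to which HLX belongs, commonly bind DNA at TAATTA-like cores, and ETS proteins at cores around GGAA. Of the 79 genes, 71 had a start window in the RefSeq table, 97 windows in all. TAATTA stood on either strand in 1 of these windows, that of HNRNPC (1.03%), against 4.84% of all 35116 windows. CAATTA stood in 2 (2.06%, HNRNPC and PRPF8), against 7.38%. CCGGAAG stood in 26 windows (26.8%) of 23 genes, against 10.3%, and among these were 17 of 38 snRNP genes, 2 of 10 SR genes and 3 of 18 hnRNP genes. The GC box GGGCGG was in 53.6% of the members' windows and 45.0% of all windows, and TATAAA in 8.25% and 11.5%. TAATTA reads the same on both strands and differs from the other homeodomain core in its first base alone. The windows of all genes include those of noncoding genes, and a match is a run of letters, not a bound site.

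The spliceosome, SR and hnRNP genes were among the brightest on the arrays. Each gene was read by its brightest probe set, whose mean of the siCTR and siHLX values is called its level, and was kept when the level was at or above 4.865, the median of all probe sets that were not controls. This held for 77 of the 79 genes and for 12135 genes of the array. The median level of the 77 was 10.91, against 7.84 for all 12135 genes, and 56 of them (72.7%) lay at 10 or more, against 15.7%. The hnRNP genes had a median level of 12.08 (8.70 to 12.96, 19 genes), the SR genes 11.36 (10.06 to 12.74, 9 genes), the snRNP genes 10.36 (5.51 to 13.70, 44 genes) and the U2AF genes 9.92 (3 genes). Within the snRNP genes the median ran from 11.83 for SNRP over 10.56 for LSM and 10.17 for SF3 to 9.44 for PRPF. Brightness depends on the probes as well as on the RNA, and the order of the groups depended on which probe sets were read: averaging every probe set of a gene above the threshold gave medians of 10.16 for hnRNP, 9.78 for snRNP and 9.44 for SR.

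**Figure D1:**
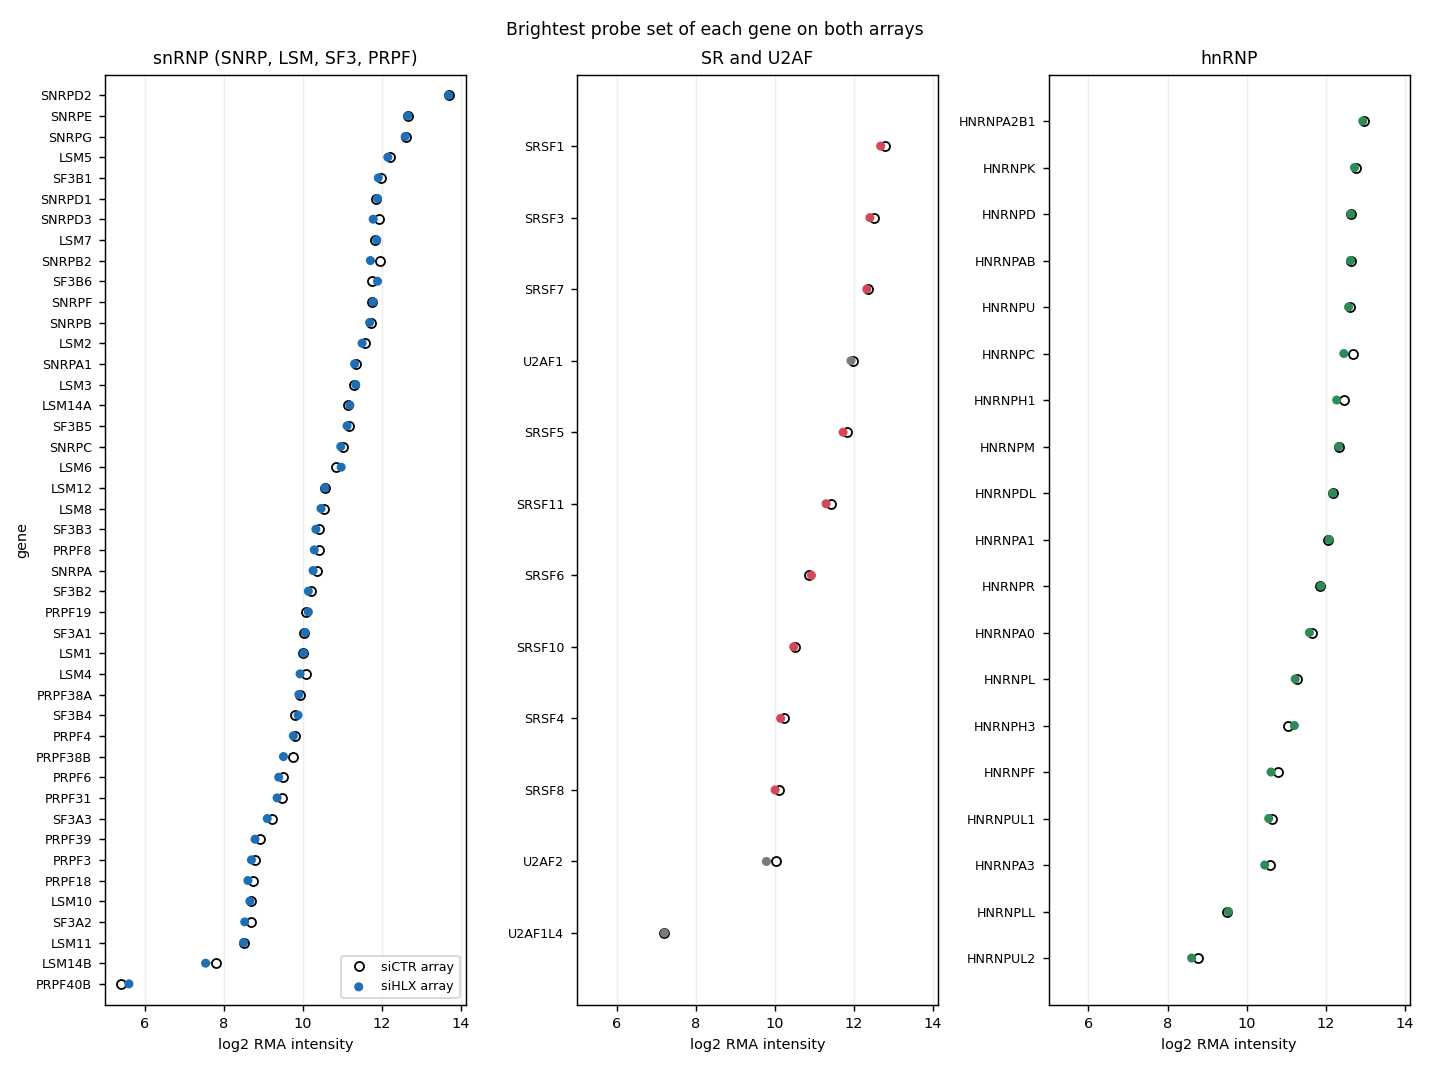
Log2 RMA intensity (x axis) of the brightest probe set of each snRNP, U2AF, SR and hnRNP gene above the level threshold (y axis). An open circle marks the siCTR array and a filled one the siHLX array, 1 array each. The circles of most genes overlap, the SNRP, SR and hnRNP genes sit mainly between 10 and 13.7, and PRPF40B at 5.41 and 5.60 is the dimmest.

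Differences between the arrays were small in all 3 groups. The 77 genes had a median difference of -0.04, with an interquartile range of -0.11 to 0.01, against -0.01 for all genes (-0.14 to 0.13). On the deposited scale 54 of 77 (70.1%) were lower and 20 higher with siHLX, against 50.2% lower among all genes. Under the poly-A scaling none was lower, against 11.2% of all genes of any level. The poly-A controls differed by -0.29, beyond the most negative member, so this count followed from the size of the shift. Set against the median of all genes, which that scaling does not alter, 53 of 77 (68.8%) lay below it, against 48.4% of all genes. Without LSMEM1 and LSMEM2 the differences ran from -0.27 to 0.19. Only LSMEM1, which is no splicing gene, reached 1.5-fold by its brightest probe set, in the upward direction, and 0 genes reached it downward, whereas 5.04% of all genes reached it in one direction or the other. That share belongs mainly to dim genes: it was 17.2% below a level of 6 and 0.469% between 8 and 10, and none of the 1900 genes at 10 or more reached it.

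**Figure D2:**
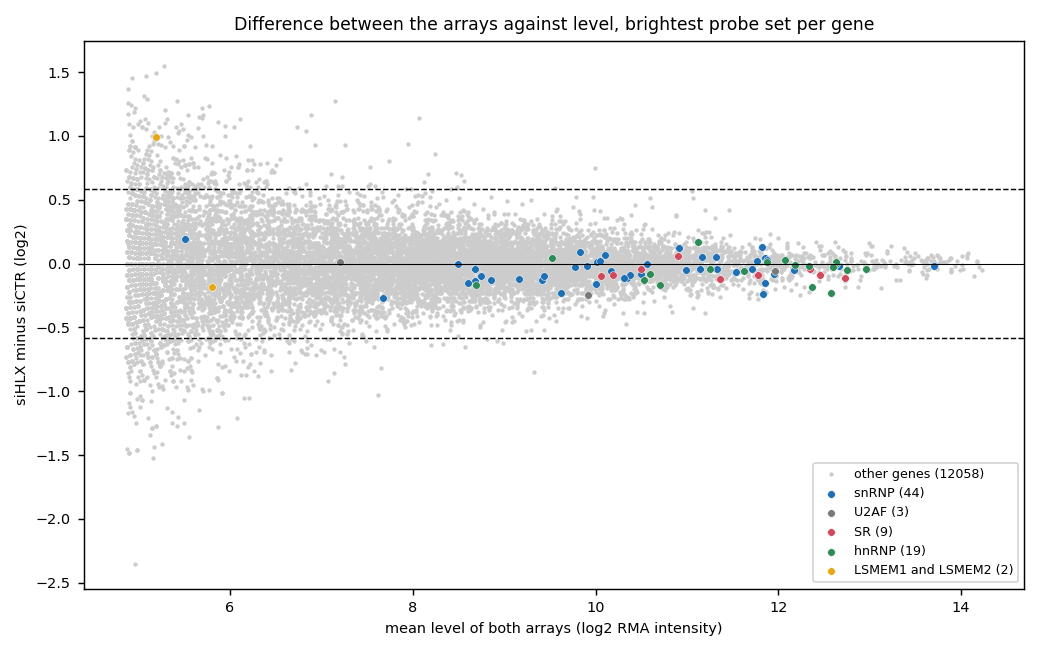
Difference between the arrays (siHLX minus siCTR, log2, y axis) against level (mean log2 RMA intensity of the pair, x axis), 1 point per gene above the level threshold, with members coloured by group and dashed lines at 1.5-fold. The cloud of all genes narrows towards bright genes, and apart from LSMEM1 the members lie inside both lines, between -0.27 and 0.19.

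The members were next set against genes of like brightness. Among the 1900 genes at a level of 10 or more, 52.1% were lower with siHLX on the deposited scale. Of the 56 members there, 39 (69.6%) were lower, with a median difference of -0.04 against -0.01. Their differences spread with an SD of 0.08, against 0.12 for all 1900, and the most distant member was 0.24 away from 0. Between 8 and 10, 13 of 16 members (81.2%) were lower, against 50.2% of 3842 genes. Under the poly-A scaling none of these members was lower. That count followed from the size of the shift: the poly-A controls differed by -0.29, beyond the -0.27 of the most negative member. The 11.2% of all genes lower under it covers every level above the threshold, and no share at like level was computed. These shares describe 1 pair of arrays, and genes are not replicates of a treatment.

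By their brightest probe sets the SR genes had a smaller spread (SD 0.06) than the snRNP (0.10) and hnRNP genes (0.09), and all of them were at a level of 10 or more. Of 9 genes, 8 (88.9%) lay below the median of all genes, against 48.4% of all genes and 68.8% of all members. These shares cover genes of every level. On the deposited scale 8 of 9 were lower, against 52.1% of the 1900 genes at a level of 10 or more. The SR differences ran from -0.12 to 0.06 around a median of -0.09. For the snRNP genes the median was -0.04, with 30 of 44 (68.2%) below the all-gene median. For the hnRNP genes it was also -0.04, with 12 of 19 (63.2%) below. The SR median depended on the probe sets: without those whose suffix marks probes shared between transcripts or genes (_s_at, _x_at, _a_at) it was 0.02, with all genes at 0.00, and when every probe set above the threshold was averaged it lay 0.03 below that of all genes. The small spread depended on them too: without shared-suffix probe sets SRSF11 was at 0.55 and SRSF3 at -0.53, and averaged over probe sets SRSF11 was at 0.19 and SRSF5 at -0.29.

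**Figure D3:**
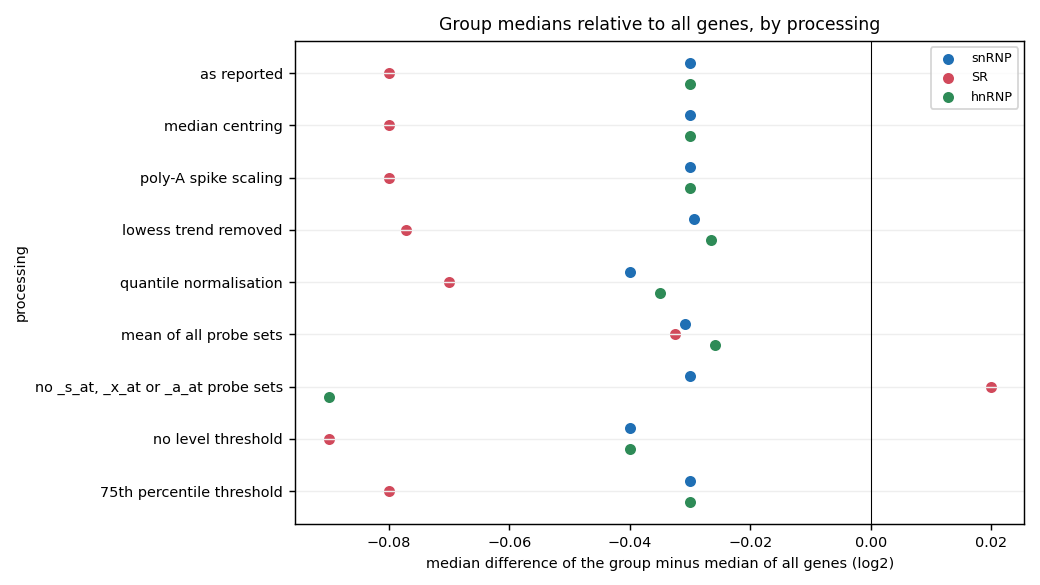
Median difference of the snRNP, SR and hnRNP genes minus the median difference of all genes (log2, x axis), as reported and under 8 other ways of processing the same 2 arrays (y axis). The snRNP and hnRNP medians stay between 0 and -0.1, while the SR median goes from -0.08 as reported to 0.02 when shared-suffix probe sets are left out. Median centring and poly-A scaling shift all genes alike and cannot move these relative medians.

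The genes of the Sm proteins, which form the ring around the U1, U2, U4 and U5 RNAs, were bright and nearly equal on both arrays. SNRPB, which encodes SmB, read 11.73 with siCTR and 11.69 with siHLX, and a further probe set read 10.92 and 10.99. SNRPD1 read 11.86 and 11.89, SNRPD2, the brightest of all members, 13.71 and 13.69, and SNRPD3 11.93 and 11.78. SNRPE read 12.67 and 12.65, SNRPF 11.76 and 11.78, and SNRPG 12.61 and 12.59. Thus the median difference over the 7 ring genes was -0.02, and SNRPD3 was the only one of them that differed by more than 0.10 in its brightest probe set. SNRPN, the imprinted relative of SNRPB, stayed under the level threshold with the probe set that is its own (level 3.02). Probe sets that the annotation gives to both SNURF and SNRPN read 10.10 and 10.06, 8.96 and 9.02, and 5.16 and 5.12. Those above the threshold shared by SNRPN, SNORD genes, PWARSN and IPW read 7.49 and 6.88, 7.97 and 8.11, and 8.13 and 8.17. None of these probe sets can be credited to a single gene.

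Among the genes of proteins particular to one snRNP, those of U1 differed by less than the SD of 0.12 over all genes at a level of 10 or more. SNRPA, which binds a loop of U1 RNA, read 10.37 with siCTR and 10.26 with siHLX, and SNRPC, which helps U1 to hold the 5′ splice site, read 11.01 and 10.96. For U2, SNRPA1 read 11.35 and 11.31, with its 3 further probe sets between -0.22 and 0.08. SNRPB2, the partner of SNRPA1 in the U2 snRNP, was the farthest of the family. Its bright probe set (202505_at) read 11.95 and 11.71, a difference of -0.24, and only 1.77% of like-level probe sets were as far down. Its dim probe set (1561965_at) read 6.03 and 4.78, a difference of -1.25, with 0.404% as far down. Both readings were lower with siHLX, but the bright one turned to 0.05 under the poly-A scaling, and no replicate array exists for either. Like-level shares, here and below, are given for far readings picked among 197 member probe sets above the threshold, and are not p-values.

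The LSM genes showed no common direction. LSM2 to LSM8 form the ring at the end of U6 RNA, and their 7 differences had a median of -0.05, from -0.16 for LSM4 (10.09 with siCTR, 9.93 with siHLX) to 0.12 for LSM6 (10.85 and 10.97). LSM5 was lower in all 3 of its probe sets, but by only 0.02 to 0.05 (12.20 and 12.15 in the brightest). LSM2 read 11.57 and 11.50, LSM3 11.29 and 11.34, LSM7 11.83 and 11.87, and LSM8 10.54 and 10.46. LSM1, which replaces LSM8 in the cytoplasmic ring of mRNA decay, read 10.01 and 10.02. LSM10 and LSM11, which belong to the U7 snRNP of histone mRNA processing, read 8.70 and 8.66, and 8.50 on both arrays. LSM12 gave 10.56 on both arrays and in a further probe set 9.63 on both.

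The LSM14 genes encode proteins of cytoplasmic mRNP granules. LSM14A was higher with siHLX in all 3 of its probe sets, by 0.02 to 0.05. The pairs were 11.14 and 11.19, 10.27 and 10.29, and 8.53 and 8.58. LSM14B had the most negative brightest probe set of all members, 7.81 and 7.54, while its 4 other probe sets ran from -0.43 to 0.73. The last of these (244488_at) read 4.74 and 5.47, at the edge of the level threshold. The probe sets of LSM14B therefore differed from each other by more than the brightest differed from 0.

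SF3A and SF3B place the U2 snRNP on the branch site. SF3B1, the subunit that clasps the branch helix and is recurrently mutated in blood cancers, read 11.99 with siCTR and 11.91 with siHLX in its brightest probe set. A further bright probe set read 11.89 and 11.92, and 3 dimmer ones were higher with siHLX by 0.20 to 0.25 (8.77 and 9.02 in the first of them). The sign of SF3B1 thus depended on the probe set. SF3B6, which contacts the branch region, had the most positive difference of the family (11.76 and 11.89), followed by SF3B4 (9.79 and 9.88). SF3A2 (8.68 and 8.53) and SF3A3 (9.22 and 9.10) were the most negative. SF3A1 read 10.04 and 10.06, and its 4 probe sets were split, with 0.02 in both bright ones and -0.34 and -0.43 in both dim ones. SF3B2 (10.20 and 10.14), SF3B3 (10.42 and 10.33) and SF3B5 (11.16 and 11.12) lay between.

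U2AF is the dimer that marks the 3′ end of the intron. U2AF1, the subunit that reads the terminal AG, was lower in its 3 probe sets above the threshold, which read 11.99 and 11.93, 8.32 and 8.16, and 7.47 and 7.14. A probe set below the threshold went the other way (4.15 and 4.55). U2AF2, which binds the polypyrimidine tract, read 10.04 and 9.79 in its brightest probe set (218381_s_at), a difference of -0.25 with 4.61% of like level as far down. Its other 3 were higher with siHLX, up to a dim one of 4.45 and 5.37 (229508_at, 0.92). So the mean over its probe sets was 0.31 and opposite in sign to the brightest. U2AF1L4, a relative of U2AF1, read 7.20 and 7.21.

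The PRPF genes were the dimmest of the snRNP families. On the deposited scale 9 of 11 were lower with siHLX, against 50.2% of all genes. Under the poly-A scaling none was lower, because that shift was larger than any negative difference of the members. Of all genes, at every level above the threshold, 11.2% were lower under it. The PRPF median difference was -0.10 on the deposited scale, against -0.01 for all genes. PRPF8, the U5 protein that holds the catalytic RNA, read 10.40 and 10.29. The U4/U6 proteins PRPF3 (8.80 and 8.70) and PRPF31 (9.48 and 9.35), and PRPF6, which bridges the tri-snRNP (9.49 and 9.39), differed by -0.10 to -0.13, and PRPF4, also of U4/U6, by -0.03 (9.79 and 9.76). PRPF38B was the most negative with 9.74 and 9.51, but a further probe set read 8.12 and 8.34. PRPF18, a factor of the second catalytic step, read 8.75 and 8.61, and a dim probe set (223685_s_at) read 5.82 and 5.23, a difference of -0.59. PRPF39 read 8.92 and 8.79, and PRPF38A 9.92 and 9.90. PRPF19, the ubiquitin ligase at the centre of the Prp19 complex, was higher (10.07 and 10.14), as was the dim PRPF40B (5.41 and 5.60).

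SRSF1, the founding SR protein, read 12.79 with siCTR and 12.68 with siHLX in its brightest probe set (211784_s_at). Of its 8 probe sets above the threshold 7 were lower with siHLX, from -0.01 to -0.48, and 1 was higher (6.44 and 6.91). SRSF3, the smallest SR protein, read 12.50 and 12.41, and SRSF5 11.82 and 11.73. SRSF5 was lower in all 3 probe sets, the dimmest of which (210077_s_at) read 5.99 and 5.23, a difference of -0.76. SRSF7 read 12.37 and 12.33, and SRSF10 10.52 and 10.48. SRSF4 read 10.24 and 10.15 in its brightest probe set, but a further one was higher (7.49 and 7.92). SRSF8 read 10.11 and 10.01, while its 3 other probe sets above the threshold were higher by 0.04 to 0.11. SRSF6 alone was higher by its brightest probe set (10.87 and 10.93, with 0.04 in its other one).

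SRSF11 showed how far readings of a single SR gene could part. Its brightest probe set (200686_s_at) had the most negative difference of the SR genes with 11.42 and 11.30, while a probe set at 8.41 and 8.96 (213742_at) was higher by 0.55, farther up than all but 0.459% of probe sets of like level. A further one read 8.19 and 8.32. SRSF12 stayed below the threshold (3.79 and 4.60). SRSF2 and SRSF9 had no probe set of their own and are not members. Probe sets shared between SRSF2 and the microRNA gene MIR636, which lies in it, read 12.53 and 12.42, 12.26 and 12.11, and 11.27 and 11.09. Those shared between SRSF9 and GATC read 11.45 and 11.40, and 11.24 and 11.15. All 5 were lower with siHLX on the deposited scale, by 0.05 to 0.18, against 52.4% of all probe sets at a level of 10 or more.

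The genes of the A/B and C-type hnRNP proteins, which package nascent transcripts, were among the brightest members. HNRNPA1 read 12.06 with siCTR and 12.09 with siHLX, but a dimmer probe set read 9.14 and 8.62. Probe sets naming HNRNPA1 together with its pseudogenes gave 13.56 and 13.45, and 13.29 and 13.36, so its level is uncertain. HNRNPA2B1 read 12.98 and 12.94 in its brightest probe set, and 5.63 and 4.25 in its dimmest (244131_at), a difference of -1.38 and the most negative of all 197 member probe sets above the threshold. HNRNPA0 was lower in all 3 probe sets by 0.01 to 0.14 (11.65 and 11.59 in the brightest). HNRNPA3 read 10.59 and 10.46, and HNRNPAB 12.63 on both arrays. HNRNPD, which also binds AU-rich elements, and its relative HNRNPDL differed by 0.01 and -0.01.

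HNRNPC, which binds uridine tracts and keeps cryptic exons out of mRNA, had the most negative brightest probe set of the hnRNP genes. That probe set (214737_x_at) read 12.69 and 12.46, a difference of -0.23, with 1.2% of like level as far down. Its suffix marks probes that can also hybridise to other genes, and the next probe sets read 12.34 and 12.28, 12.28 and 12.15, and 11.80 and 11.85. The remaining 2 above the threshold differed by -0.10 and 0.17. HNRNPU, a scaffold protein of chromatin and RNA, was lower in all 5 of its probe sets (-0.06 ± 0.03, SD over probe sets of the same RNA; 12.61 and 12.58 in the brightest). HNRNPM was also lower in its 5 probe sets above the threshold, by 0.02 to 0.23 (12.35 and 12.33 in the brightest), whereas 2 below the threshold read 3.36 and 3.94, and 3.18 and 3.89.

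The hnRNP proteins of the F/H class bind runs of guanine. HNRNPH1 read 12.46 and 12.28, HNRNPF 10.79 and 10.62, and HNRNPH3 11.04 and 11.21. Thus HNRNPH3 had the most positive difference of the hnRNP genes by the brightest probe set (0.17), although its 3 other probe sets were split (0.13, -0.31 and -0.06). HNRNPK, which binds cytosine-rich RNA and DNA, read 12.78 and 12.73. HNRNPL read 11.27 and 11.23, HNRNPR 11.87 and 11.88, HNRNPUL1 10.64 and 10.56, and HNRNPUL2 8.78 and 8.61. HNRNPH2 had no probe set of its own and is not a member.

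HNRNPLL, known as a regulator of CD45 splicing in activated T cells, was the only splicing gene with a probe set beyond 1.5-fold at a level of 6 or more. This probe set (225385_s_at) was at 7.15 with siCTR and at 7.82 with siHLX, which is 0.67 higher or 1.59 times the control, and 0.49% of like-level probe sets were as far up. The brightest one (225386_s_at) read 9.50 and 9.54, and a further one (236104_at) 6.31 and 6.66. All 3 were higher with siHLX, as was a probe set below the threshold (3.94 and 4.40), but their size was uneven: the mean over the 3 was 0.35 ± 0.32 (SD over probe sets). Hence the value of HNRNPLL was 0.04 or 0.67 according to the probe set read.

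**Figure D4:**
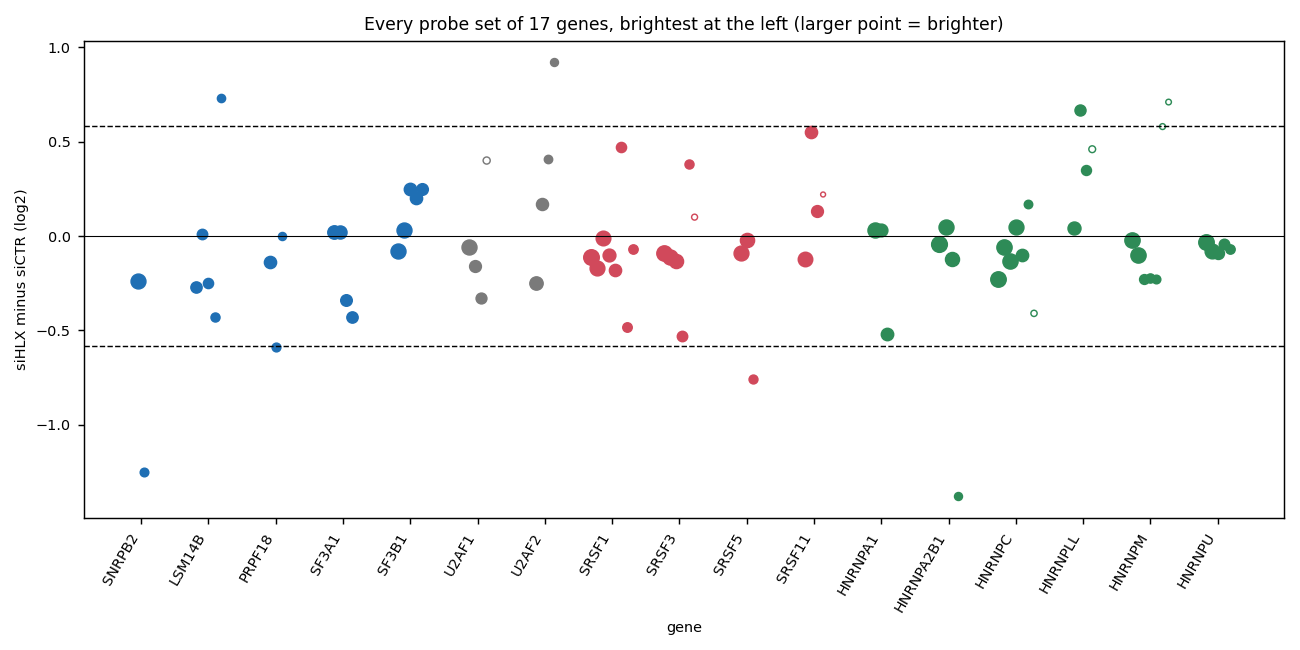
Difference (siHLX minus siCTR, log2, y axis) of every probe set of 17 members named in the text (x axis), brightest at the left of each gene and larger points brighter; open circles are below the level threshold, and dashed lines mark 1.5-fold. Bright probe sets lie close to 0, and the far readings, such as -1.38 for HNRNPA2B1, -1.25 for SNRPB2 and 0.92 for U2AF2, are small points.

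Over all probe sets of the members, 197 of 218 were above the threshold, and 120 of these (60.9%) were lower with siHLX on the deposited scale, against 49.9% of all. At least 1.5-fold were 8 of the 197 (4.06%), against 6.01% of all 22453 probe sets above the threshold. The 4 higher ones belonged to LSMEM1, U2AF2, LSM14B and HNRNPLL, and the 4 lower ones to HNRNPA2B1, SNRPB2, SRSF5 and PRPF18. Of these 8, 7 had a level below 6, which is 30.4% of the 23 member probe sets there, against 17.4% of all probe sets at that level. None of the 55 member probe sets between 8 and 10 and none of the 91 at 10 or more was. Probe sets of the same gene often differed in sign: of the 52 members read by 2 or more probe sets above the threshold, 18 (34.6%) had a single sign, against 37.1% of 5869 genes. These 18 were 14 lower and 4 higher, that is 26.9% and 7.69% of the 52, against 19.3% and 17.7% of the 5869. Of the 33 members read by 3 or more such probe sets, 6 (18.2%, against 12.0% of 2657 genes) were lower in all, namely HNRNPA0, HNRNPM, HNRNPU, LSM5, SRSF5 and U2AF1. HNRNPLL and LSM14A were higher in all (6.06%, against 10.2%).

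The members that match by name alone were dim. LSMEM1 read 4.69 and 5.68 in its brighter probe set (0.99) and 5.27 and 4.83 in the other (-0.44), so its readings had opposite signs. LSMEM2 read 5.89 and 5.71.

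Other genes of the pathway, taken from lists of splicing factors outside the name rule, were read in the same way, and none of them reached 1.5-fold by its brightest probe set. The counts that follow stand beside 50.2% lower and 5.04% at 1.5-fold among all genes, with 0.469% at 1.5-fold between levels of 8 and 10, where most of the list medians lay. Of 18 further genes of snRNP proteins above the threshold, 12 were lower and 6 higher with siHLX on the deposited scale (median -0.05). At the ends were PDCD7 of the minor spliceosome (9.47 and 9.12) and SNRNP35 of the same machine (7.02 and 7.23). SNRNP70, another protein of U1, read 9.82 and 9.75, and EFTUD2, the GTPase of U5, 11.61 and 11.58. Of 11 spliceosomal helicases 7 were lower (median -0.07), among them DHX8, which releases spliced mRNA (9.05 and 8.83, and 8.60 and 8.30). Of 19 genes of the Prp19 and catalytic complexes 11 were lower (median -0.04), and ISY1 was lower in all 4 probe sets (9.59 and 9.45 in the brightest).

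Of 21 early factors and other regulators 14 were lower (median -0.06). Here PTBP1, the polypyrimidine tract repressor, read 11.94 and 11.73 in its bright probe set but was higher in both dim ones, and SF1, the branch point binding protein, was higher in both of its probe sets (9.74 and 9.92 in the brighter). Of 16 SR-related genes 11 were lower (median -0.07), with LUC7L lower in all 4 probe sets by 0.10 to 0.13. The 8 kinases that phosphorylate SR proteins were the only list with more genes higher (5) than lower (3) and a median of 0.02, and CLK3 (7.46 and 7.16) and CLK4 (8.79 and 8.56) were its most negative members. Of 15 genes of the SMN complex and snRNP assembly 10 were lower (median -0.06), and TGS1, which methylates the cap of snRNAs, was lower in all 3 probe sets (10.56 and 10.34 in the brightest). Of 10 exon junction and mRNA export genes 6 were lower (median -0.09), while THOC2 of the export complex was higher in all 4 probe sets (9.52 and 9.76 in the brightest). SNRNP200 and DDX23 stood in both of the first lists, and under the poly-A scaling the median of all genes moves by more than any of these medians.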

How the data were processed

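SU-DHL-1 cells with siCTR or siHLX were measured on 1 array each, and groups were taken from the treatment in the labels. The deposited values were log2 intensities of probe sets, which the authors had obtained by RMA background correction and quantile normalisation with limma and affy in R. Package versions and a build for the array annotation were not found in the sources used here. Ratios to the sample mean, mentioned in the study's methods, were not visible in the values. Quantile normalisation equalises the arrays (the sorted values differed by at most 0.06), which hides any shift common to most transcripts. The number of arrays limits the precision.

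Of 54613 probe sets, 41091 named 1 gene and 1801 several, which were left out. Symbols were updated by Entrez identifier with RefSeq GRCh38.p14 (41037 found, 0 changed), and 1 pseudogene was removed. Each gene was read by its brightest probe set at or above the median level, 4.865. Like level means within 0.5 log2 units. Counts used a 1.5-fold limit (log2 0.585). Named were, per family, the 3 most positive and 3 most negative members and the brightest, members with a probe set at 1.5-fold or with at least 3 probe sets of 1 sign, the best-known members and HLX; the remaining members are given for completeness. In the pathway lists, examples were chosen after their values were seen. Members, lists, motifs and rules were chosen with earlier results of these data known. Alternatives were median centring, poly-A scaling, lowess (fraction 0.2), quantile normalisation, the mean of all probe sets, no shared-suffix probe sets, no threshold, the 75th percentile (7.095) and a 2-fold limit. Python 3.11.15, numpy 2.4.6, pandas 2.3.3, statsmodels 0.14.6 and matplotlib 3.10.9 were used, and the steps were tested on simulated data.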

Additional observations from a re-analysis of the deposited data

How the results depend on the processing

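Scaling to the poly-A controls turned the direction of every group. It left 77 of 77 members higher, 11.2% of all genes lower, and 33 of 50 named genes of the other sign. The median difference became 0.25 for all members, 0.25 for snRNP, 0.20 for SR and 0.25 for hnRNP genes, with all genes at 0.28. Relative to all genes these medians stayed at -0.03, -0.03, -0.08 and -0.03. Without shared-suffix probe sets 60 members were left, the SR median reversed to 0.02, and the median levels were 10.02 for snRNP, 8.69 for SR and 9.49 for hnRNP genes. Averaging all probe sets of a gene, these levels were 9.78, 9.44 and 10.16, and 9 of 50 named genes changed sign. The 1 member at least 1.5-fold higher became 0 with averaged probe sets, the 75th percentile threshold or the 2-fold limit, and 2 without shared-suffix probe sets or without a threshold. The 0 members lower became 1, SNRPB2 at -0.75, with averaged probe sets. Median centring, lowess and quantile normalisation changed no sign among the 50 named genes and left 54 of 77 members lower. Median centring and quantile normalisation could hardly act, because both arrays had a median of 4.87 and were quantile normalised as deposited. The causes were not tested. Medians and single differences were called moved when they shifted by at least 0.26, the SD between probe sets of a member. A median difference of the other sign was called reversed. Counts were called moved when they changed by a ratio above 1.5, or to or from 0. The SD of 0.26 compares probe sets that read the same RNA samples and is no replicate error. No paired analysis was possible because each treatment had 1 array. For the same reason no difference has a replicate error, and all probe sets below a level of 6 spread with an SD of 0.43, against 0.12 at 10 or more.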

Other observations

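Beside the probe sets of a single gene, 24 named a gene of these families together with another gene, and 19 of them were above the level threshold. Their differences had a median of -0.08 and ran from -0.61 to 0.31. Of these 19, 1 reached 1.5-fold, against 6.01% of the 22453 probe sets of single genes above the threshold. It named SNRPN with SNORD genes, PWARSN and IPW, and read 7.49 with siCTR and 6.88 with siHLX. The 24 probe sets entered no count of member genes or member probe sets above, since none can be credited to a single gene. Those naming SRSF2 or SRSF9 were counted above for their direction alone.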
